A study of Mus musculus with 24 samples.

Results

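The diet by ozone interaction is the difference between the ozone response of the mouse lung on a diet rich in docosahexaenoic acid (DHA) and its ozone response on a control diet. For each gene it was taken on the log2 scale as (DHA-diet ozone minus DHA-diet air) minus (control-diet ozone minus control-diet air). A positive value means that the change after ozone was more positive on the DHA diet, and a negative value that it was more negative. All 24 of the 24 RNA sequencing libraries in the series entered it, 6 in each of 4 groups: control diet with filtered air, control diet with ozone, DHA-rich diet with filtered air, and DHA-rich diet with ozone. The diet preceded the exposure, and every library was made from lung. Strain, age, ozone concentration, exposure time and length of feeding are not given in the labels. Nor do the labels say whether each library of a group was made from its own mouse, so the p-values reflect variation among libraries, which may be technical. Library totals ran from 18053493 to 26225630 counts, and 16153 of the 26253 genes in the deposited table passed the filter on low counts and were tested. Markers of lung epithelium were abundant, with averages over the 24 libraries of 22899.6 CPM (counts scaled to a common library size) for Sftpc, a surfactant protein of alveolar type 2 cells, 2181.5 CPM for Ager of alveolar type 1 cells and 282 CPM for Foxj1 of ciliated cells.

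DHA is a long-chain omega-3 fatty acid that is built into membrane lipids and is a precursor of oxylipins, lipid mediators of which some limit inflammation. Ozone is an oxidant gas that reacts with the fluid and cells lining the airways, and inhaling it is known to injure epithelium and to bring neutrophils and macrophages into the lung. A gene has an interaction when the diet alters the size or sign of its change after ozone, so a gene that differs by the same factor between diets in air and after ozone has none.

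Several libraries stood apart from others of their group. In control-diet air, libraries 1 to 3 had mean log2 CPM values of 6.14 to 6.21 over 30 cytosolic ribosomal protein genes, and libraries 4 to 6 had 6.53 to 6.59. DHA-diet ozone library 1 had the lowest share of counts from Scgb1a1, the club cell secretory protein, at 5.51% against 7.62 to 12.3% in the other 23 libraries, and the most extreme levels of several circadian clock genes. DHA-diet ozone libraries 1 and 2 had the highest levels of neutrophil markers.

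No gene was called different in its ozone response between the diets. The genes with the smallest p-values were Scn3b, a sodium channel beta subunit, Etv5, a transcription factor of alveolar type 2 cells, Grpel2, a mitochondrial import cochaperone, and Acta2, the smooth muscle actin. In the quasi-likelihood test of edgeR, adjusted over all genes by Benjamini-Hochberg, 0 of 16153 genes were called higher and 0 lower at an adjusted p under 0.05 (0% of genes tested), 0 at an adjusted p under 0.1, and the smallest adjusted p was 0.166. At an unadjusted p under 0.05 there were 988 genes, 6.12% of those tested, with 467 positive (2.89%) and 521 negative (3.23%). DESeq2 called 5 genes, Acta2 and Gp1bb higher and Scn3b, Etv5 and Grpel2 lower, and limma-voom with sample quality weights called Scn3b and Etv5. Without control-diet air library 6, edgeR called Acta2 and Des higher and Scn3b lower. The same 3 genes and Myh11 were called without control-diet air libraries 4 to 6, where 9.53% of genes had an unadjusted p under 0.05. Without control-diet air libraries 1 to 3 the test called 0 genes, and that share was 11.5%.

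The same model called far more genes for ozone than for diet. Ozone against air gave 2713 called genes on the control diet (16.8%) and 3824 on the DHA diet (23.7%), and DHA against control diet gave 186 in air (1.15%) and 0 after ozone (0%), where 2260 genes had an unadjusted p under 0.05. The median standard error of a gene's interaction was 0.12 on the log2 scale, against 0.08 for each of these comparisons. The median interaction over all genes was 0.00104, with 50.3% of genes positive. When counts were scaled by library totals alone, the median was 0.0279 and 58.9% of genes were positive.

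The width of the intervals sets what differences these libraries could leave undetected. The 95% interval of the interaction lay within 1.5-fold in either direction for 11973 genes (74.1%) and within 2-fold for 14326 (88.7%). Among the 14792 genes averaging 1 CPM or more the shares were 80.9% and 95.3%. Genes with strong ozone responses were less tightly bounded. Of 166 genes that were called for ozone averaged over the diets and changed at least 2-fold, 2.41% had an interval within 1.5-fold and 34.9% within 2-fold, and the intervals of the others reached past 2-fold.

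The genes that responded to ozone moved largely the same way on both diets, and these comparisons share no library. Of the 2713 genes called on the control diet, 2635 (97.1%) had the same sign on the DHA diet, and 1866 (68.8%) were also called there in that direction. Of the 3824 called on the DHA diet, 3666 (95.9%) had the same sign on the control diet and the same 1866 (48.8%) were called there. Only 1 gene was called on both diets in opposite directions, the platelet receptor gene Gp1bb. Across all 16153 genes the log2 changes on the diets had a Pearson r of 0.683 and a Spearman rho of 0.651, as a description over genes that share libraries and are not independent.

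**Figure D1:**
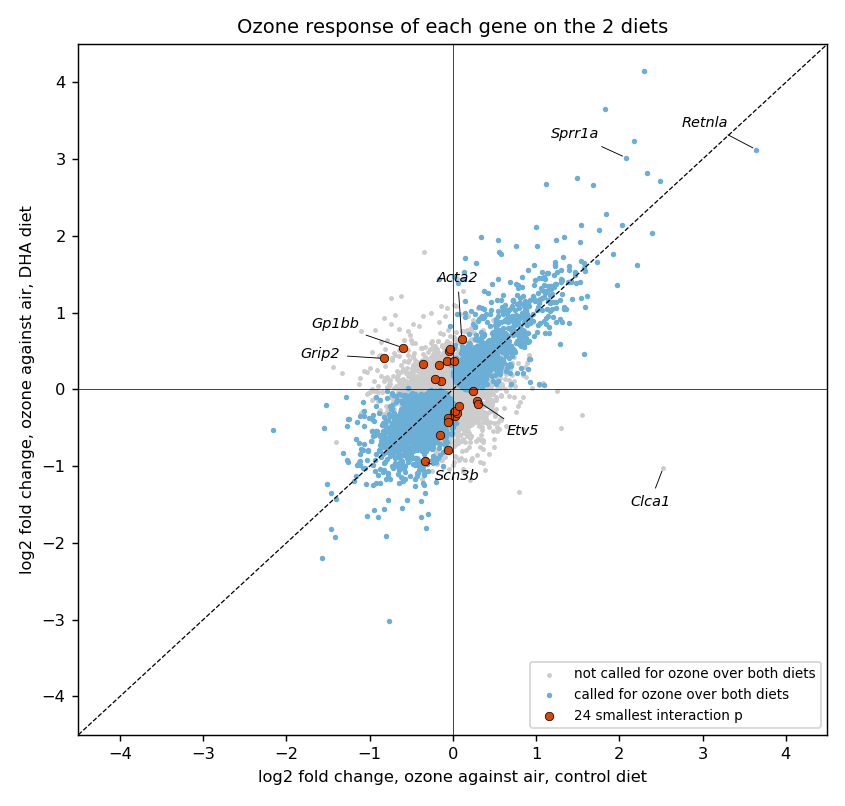
Log2 fold change after ozone on the control diet (x axis) and on the DHA diet (y axis) for each of the 16153 genes tested, with the line of equal response dashed. Blue points are the 5726 genes called for ozone averaged over both diets, and orange points are the 24 genes with the smallest interaction p, which lie near the origin and off the dashed line.

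The ozone response as a whole was nominally larger on the DHA diet, by less than the spread of single libraries within groups. Over the 5726 genes called for ozone averaged over the diets (35.4% of genes tested), the median size of the change was 0.21 on the log2 scale on the control diet and 0.24 on the DHA diet, and 3515 genes (61.4%) had the larger change on the DHA diet. Over the 166 genes that changed at least 2-fold, the medians were 1.17 and 1.36, and 114 genes (68.7%) had the larger change on the DHA diet. An interaction at an unadjusted p under 0.05 was found in 6.97% of the 5726 genes and in 7.23% of the 166, beside 6.12% of all genes.

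A score was formed for each library as the mean over the 5726 genes of log2 CPM, signed by the direction of the average ozone change and set to 0 in control-diet air. After ozone it was 0.281 ± 0.0375 (SD, n = 6 libraries) on the control diet and 0.336 ± 0.0598 on the DHA diet, and in DHA-diet air it was 0.0177 ± 0.0308. Its spread in control-diet air was 0.0339 (SD). The response in the score was therefore 0.281 on the control diet and 0.318 on the DHA diet. Their difference of 0.0372 was smaller than the pooled SD of 0.0421 within groups. That SD is the spread of single libraries and not the error of a difference between group means, which was not computed. With each library left out in turn the difference ranged from 0.0209 to 0.0597. Without control-diet air libraries 1 to 3 it was 0.00278, and without libraries 4 to 6 of that group it was −0.0256. The genes were chosen anew in each case.

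**Figure D2:**
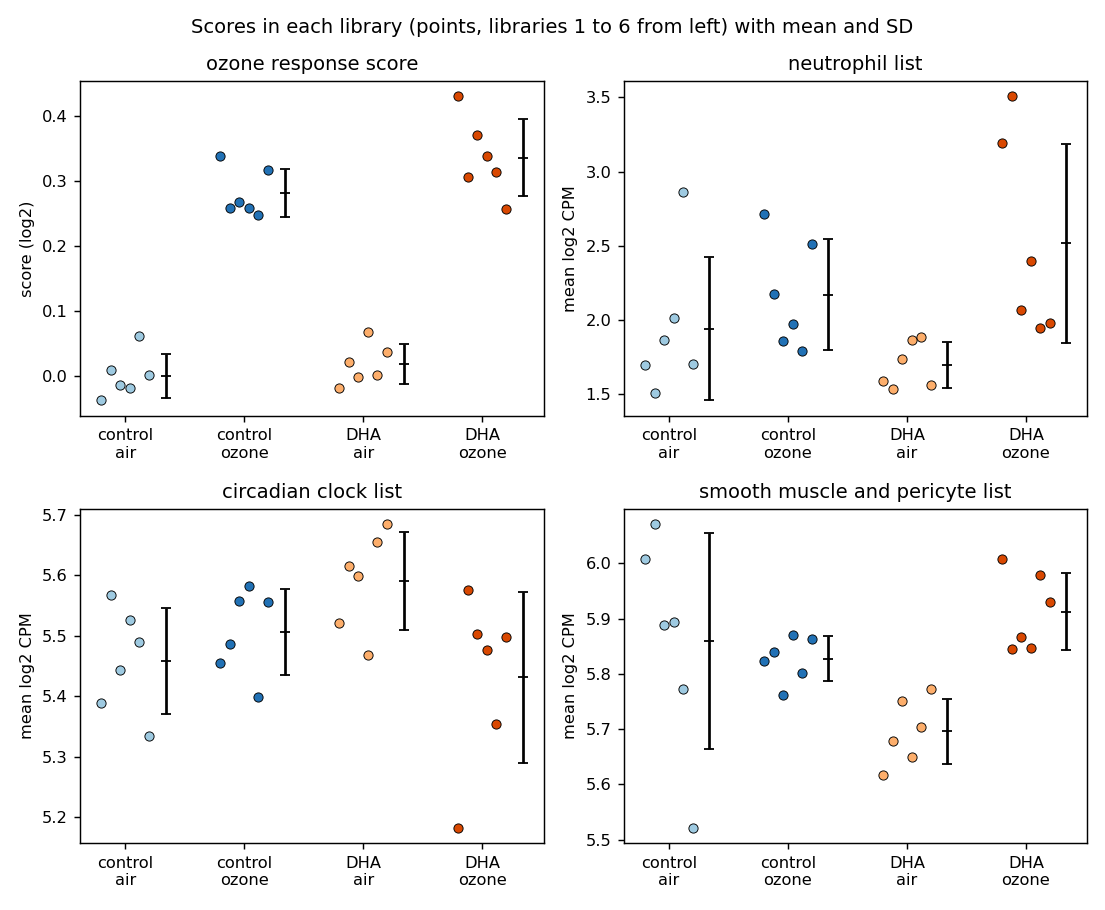
Ozone response score and mean log2 CPM of the neutrophil, circadian clock and smooth muscle lists in each library (points, y axes on the log2 scale), by group, with group mean and SD (bars, n = 6). The ozone libraries score between 0.247 and 0.431 and all air libraries at most 0.0673, while for the 3 lists only the neutrophil and smooth muscle levels of DHA-diet air and DHA-diet ozone do not overlap among the comparisons within a diet.

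The 24 genes of smallest interaction p among those averaging 1 CPM or more are described next. They were chosen for that p, and edgeR called 0 of them. Their interactions were positive in 11 and negative in 13, and ran in size from 0.25 to 1.23 on the log2 scale, with adjusted p between 0.166 and 0.601. In 23 of the 24 the diets differed in opposite directions in air and after ozone, and in 15 the larger gap between the diets was the one in air. The sign of the ozone change differed between diets in 17. Ozone changed 9 of them on the control diet (16.8% of all genes) and 17 on the DHA diet (23.7%) by the same test, 2 of them on both diets (Scn3b and Gp1bb). The diets differed in air in 12 (1.15% of all genes). Ozone and air libraries did not overlap for 3 of the genes on the control diet (7.76% of all genes) and for 13 on the DHA diet (9.03%), and the diets did not overlap for 7 in air (1.85%) and for 0 after ozone (0.83%). Because these genes were picked for the interaction, which is made of the same values, these counts carry no test.

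Scn3b encodes a beta subunit that modulates voltage-gated sodium channels and is placed at 40180512 to 40202915 of chromosome 9 in the mm39 coordinates of the deposited table. Its lowest, median and highest levels were 57.4, 60.7 and 82.0 CPM in control-diet air and 46.3, 51.1 and 55.2 CPM after ozone. On the DHA diet they were 66.8, 77.8 and 92.5 CPM in air and 35.7, 41.6 and 46.4 CPM after ozone. Air and ozone libraries did not overlap on either diet, and control-diet air library 6 stood above the rest of its group. Scn3b fell to 0.790 of its air level on the control diet (log2 −0.34 ± 0.08 SE, adjusted p = 0.00397) and to 0.524 on the DHA diet (−0.93 ± 0.08, adjusted p = 7.04e-08). The interaction was −0.59 ± 0.11 (95% interval −0.82 to −0.37, unadjusted p = 1.28e-05, edgeR adjusted p = 0.166). Without control-diet air library 6 the adjusted p was 0.00388. Over the 35 alternatives and left-out libraries together the interaction ran from −0.66 to −0.51, and it was called in 4 of them.

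Etv5 encodes an ETS transcription factor needed to keep alveolar type 2 cells in their state, and is placed at 22200063 to 22258321 of chromosome 16. Its lowest, median and highest levels were 88.7, 105 and 120 CPM in control-diet air and 119, 131 and 138 CPM after ozone. On the DHA diet they were 124, 136 and 154 CPM in air and 119, 123 and 131 CPM after ozone. All 6 DHA-diet air libraries were above all 6 control-diet air libraries, and every other pair of groups overlapped. Etv5 rose 1.23-fold after ozone on the control diet (adjusted p = 0.0016), its fold on the DHA diet was 0.902 (adjusted p = 0.0736), and it stood 1.29-fold higher on the DHA diet in air (adjusted p = 0.00628). The interaction was −0.44 ± 0.09 (95% interval −0.62 to −0.27, edgeR adjusted p = 0.166).

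Grpel2 had 31.6, 34.4 and 37.2 CPM in control-diet air and 30.7, 32.9 and 37.3 CPM after ozone. In DHA-diet mice it had 39.6, 42.3 and 43.7 CPM in air and 30.8, 32.3 and 33.8 CPM after ozone. The DHA-diet air libraries were thus above all 18 others. Its interaction was −0.32 ± 0.07 (edgeR adjusted p = 0.372). Pde7b, a cyclic AMP phosphodiesterase, was likewise highest in DHA-diet air, at 40.7 to 50.5 CPM against 30.7 to 38.6 CPM in the other 3 groups, with an interaction of −0.36 ± 0.09 (adjusted p = 0.469).

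**Figure D3:**
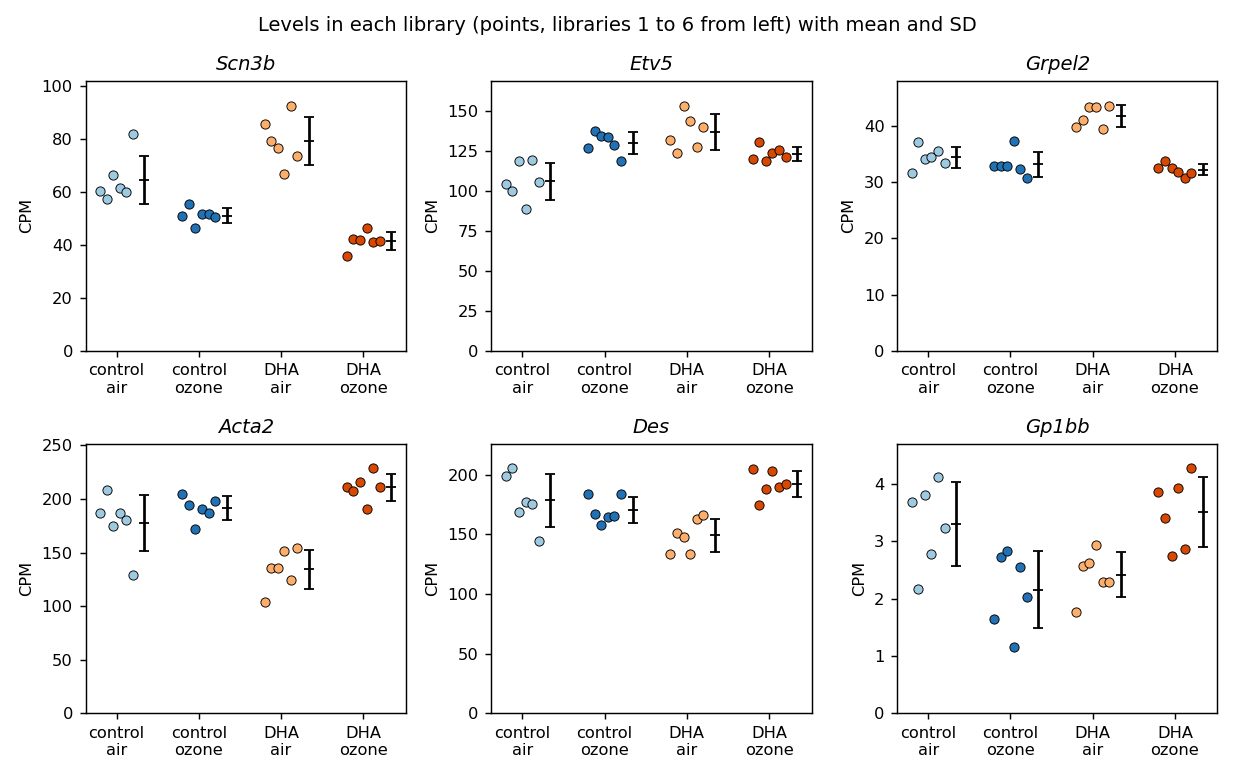
CPM of 6 genes with small interaction p in each library (points), by group, with group mean and SD (bars, n = 6), on y axes from 0. DHA-diet air libraries are highest for Scn3b, Etv5 and Grpel2 and lowest for Acta2 and Des as group means. After ozone the diets overlap for all 6 genes.

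Genes of the contractile apparatus of smooth muscle stood lowest in DHA-diet air and had positive interaction values. Of 12 smooth muscle and pericyte markers tested, 6 had a positive interaction at an unadjusted p under 0.05 and 0 a negative one, beside 2.89% and 3.23% of all genes. The list's median was 0.28, beside 0.00104 over all genes, and edgeR called 0 members. The 6 were Acta2, Des, Lmod1, Actg2, Tagln and Cnn1, which are contractile or cytoskeletal proteins of smooth muscle. The pericyte markers Pdgfrb, Cspg4 and Rgs5 had interactions of 0.03, −0.02 and 0.01.

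Acta2 stood at 129, 183 and 208 CPM (lowest, median and highest library) in control-diet air and at 172, 193 and 205 CPM after ozone. On the DHA diet it stood at 104, 136 and 154 CPM in air and at 191, 211 and 229 CPM after ozone. Air and ozone libraries were separate on the DHA diet and overlapped on the control diet, where air library 6 was the lowest. Acta2 rose 1.57-fold after ozone on the DHA diet (adjusted p = 1.17e-05), its fold on the control diet was 1.08 (adjusted p = 0.431), and it was lower on the DHA diet in air, at 0.756 of the control-diet level (adjusted p = 0.0212). The interaction was 0.54 ± 0.12 (95% interval 0.29 to 0.80, edgeR adjusted p = 0.378), and 0.00863 was the adjusted p without control-diet air library 6.

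Des, the muscle intermediate filament desmin, had 144, 176 and 205 CPM in control-diet air and 157, 166 and 184 CPM after ozone. In DHA-diet mice it had 133, 149 and 166 CPM in air and 175, 191 and 205 CPM after ozone, without overlap. Its interaction was 0.43 ± 0.10 (edgeR adjusted p = 0.378). Myh11, the smooth muscle myosin heavy chain, ran from 85.1 to 186 CPM within control-diet air alone and had an interaction of 0.33 ± 0.16 (adjusted p = 0.816). The list depended on the control-diet air libraries, whose mean log2 CPM over it ran from 5.52 in library 6 to 6.07 in library 2. Without libraries 1 to 3 of that group 3 members had an unadjusted p under 0.05 (median 0.14), and without libraries 4 to 6 there were 8 (median 0.53). Over all genes the share at that p in these fits was 11.5% and 9.53%, against 6.12% with all libraries. Smooth muscle cells in a lung piece and contractile RNA per cell cannot be told apart in bulk tissue, and this holds for each marker list that follows.

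Other genes among the 24 included muscle and blood cell genes. Grip2, a scaffold protein, had 1.20, 1.98 and 2.32 CPM in air and 0.845, 1.06 and 1.19 CPM after ozone on the control diet, and 0.718, 0.898 and 1.34 CPM in air and 0.932, 1.29 and 1.54 CPM after ozone on the DHA diet. It fell on the control diet to 0.562 of its air level without overlap (adjusted p = 0.0045), and its interaction of 1.23 ± 0.28 rested on low counts. Jph2, a junctional membrane protein of heart muscle, and Fhl3, a muscle LIM protein, had interactions of 0.49 ± 0.13 and 0.55 ± 0.14. Gata2, a transcription factor of blood and endothelial cells, had 0.34 ± 0.09. Gas2l1 and Nrgn had 0.25 ± 0.06 and 0.69 ± 0.17. Litaf and Adamts15 had 0.35 ± 0.09 and 0.56 ± 0.15, and for both DHA-diet ozone library 1 was far above its group. The negative interactions also included Fchsd2, Gsap, Cemip2, Eif5a2, Snx25, Nptx1, Rbak, Hivep2 and Frmd4b, between −0.73 ± 0.19 for Nptx1 and −0.26 ± 0.07 for Snx25.

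Among the 40 gene lists, the circadian clock genes had the largest share of members with a negative interaction at an unadjusted p under 0.05. The clock is a feedback loop in which the activators Arntl and Clock bind the E-box element CACGTG and drive the Per and Cry repressors and output factors such as Dbp, Tef and Hlf, so that activators and targets peak at opposite times of day. Of 18 clock genes tested, 9 had a negative interaction at an unadjusted p under 0.05 and 1 a positive one, beside 3.23% and 2.89% of all genes. The list's median was −0.35 and edgeR called 0 members. The 9 were Cry1, Tef, Bhlhe40, Per3, Hlf, Nr1d2, Per2, Ciart and Dbp, and the 1 was Arntl. The count of negative members ran from 7 to 10 with each library left out in turn. It was 7 without control-diet air libraries 1 to 3, 8 without libraries 4 to 6, and 10 without DHA-diet ozone libraries 1 and 2. In these fits 11.5%, 9.53% and 7.79% of all genes had an unadjusted p under 0.05 in either direction, against 6.12% with all libraries. Clock times of exposure and tissue collection are not given in the labels, and the part of collection time in the clock gene values was not tested.

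Per2 had 50.6, 59.5 and 73.0 CPM in control-diet air and 44.3, 58.7 and 66.5 CPM after ozone. In DHA-diet mice it had 68.4, 93.5 and 102 CPM in air and 42.9, 64.8 and 71.8 CPM after ozone. The DHA-diet air group was the high one, and its lowest library lay below the highest of control-diet air and of DHA-diet ozone. The Per2 interaction was −0.50 ± 0.17 (unadjusted p = 0.00675, edgeR adjusted p = 0.658). Cry1, its partner repressor, had 8.90, 13.5 and 14.9 CPM in control-diet air, 16.1, 18.2 and 21.3 CPM in DHA-diet air, 12.05, 15.4 and 17.1 CPM in control-diet ozone and 11.9, 16.1 and 17.9 CPM in DHA-diet ozone. All DHA-diet air libraries were above all control-diet air libraries for Cry1, and its interaction was −0.50 ± 0.15 (adjusted p = 0.658).

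Tef, an output factor, had 311, 339 and 371 CPM in control-diet air and 341, 361 and 379 CPM in control-diet ozone, and on the DHA diet 395, 412 and 476 CPM in air and 241, 370 and 397 CPM after ozone. The lowest of these values was DHA-diet ozone library 1, and the interaction was −0.37 ± 0.12 (adjusted p = 0.658). Arntl, the activator, had 5.27, 6.88 and 8.13 CPM in air and 4.32, 5.02 and 6.86 CPM after ozone on the control diet, and 2.05, 2.98 and 4.95 CPM in air and 3.34, 3.88 and 17.4 CPM after ozone on the DHA diet. Its levels thus ran opposite to those of its targets between the diets in air, with no overlap, and DHA-diet ozone library 1 stood far above every other library. The Arntl interaction of 1.31 ± 0.43 ranged from 0.71 to 1.45 over the alternatives and libraries left out. Dbp was lowest in that same library, at 36.4 CPM against 113 to 147 CPM in the other 5 of its group, and its interaction was −0.53 ± 0.25. Without library 1 the interactions were −0.34 for Dbp and 0.71 for Arntl.

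The E-box was looked for in RefSeq promoters of the GRCm38.p6 assembly, each 300 bases from 250 before to 50 after the gene's start. CACGTG reads the same on both strands. It was present in 5 of the 15 clock genes with a promoter in that table (33.3%) and in 2187 of all 27025 gene symbols (8.09%). Of the 9 genes with negative interactions at an unadjusted p under 0.05, 7 had a promoter there and 3 held the element. Per3, Hlf, Nr1d2 and Dbp, also of the 9, had 0 copies, and Per1 and Bhlhe41, not of the 9, had 1 copy each. A link between the element and the interaction was not tested. The 3 promoters of the 9 that held the element are shown in the direction of transcription, with the E-box in capitals. The windows are Cry1 at chr10:85185005-85185304 on the minus strand, Tef at chr15:81802423-81802722 on the plus strand and Ciart, a repressor in the clock loop, at chr3:95882179-95882478 on the minus strand.
Cry1: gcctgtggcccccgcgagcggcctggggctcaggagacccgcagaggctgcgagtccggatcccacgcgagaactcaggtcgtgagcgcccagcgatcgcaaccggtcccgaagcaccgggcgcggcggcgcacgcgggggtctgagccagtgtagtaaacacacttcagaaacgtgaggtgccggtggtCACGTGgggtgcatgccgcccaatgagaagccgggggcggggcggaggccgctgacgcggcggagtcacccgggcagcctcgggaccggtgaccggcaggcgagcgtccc
Tef: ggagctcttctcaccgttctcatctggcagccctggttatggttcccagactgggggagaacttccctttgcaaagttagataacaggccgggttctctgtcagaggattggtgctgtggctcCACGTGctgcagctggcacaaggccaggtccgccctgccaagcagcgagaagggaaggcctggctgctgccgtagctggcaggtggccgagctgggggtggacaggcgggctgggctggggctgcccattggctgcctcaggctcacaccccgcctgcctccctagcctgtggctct
Ciart: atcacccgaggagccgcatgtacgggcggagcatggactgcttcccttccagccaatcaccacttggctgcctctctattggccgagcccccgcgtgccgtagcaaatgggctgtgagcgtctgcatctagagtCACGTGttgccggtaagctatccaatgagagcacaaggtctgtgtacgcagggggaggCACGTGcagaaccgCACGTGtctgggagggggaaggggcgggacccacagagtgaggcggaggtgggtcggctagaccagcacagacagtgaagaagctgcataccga
Cry1 and Tef each held 1 copy and Ciart 3 copies. A match describes these letters only, and factor binding was not measured.

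**Figure D4:**
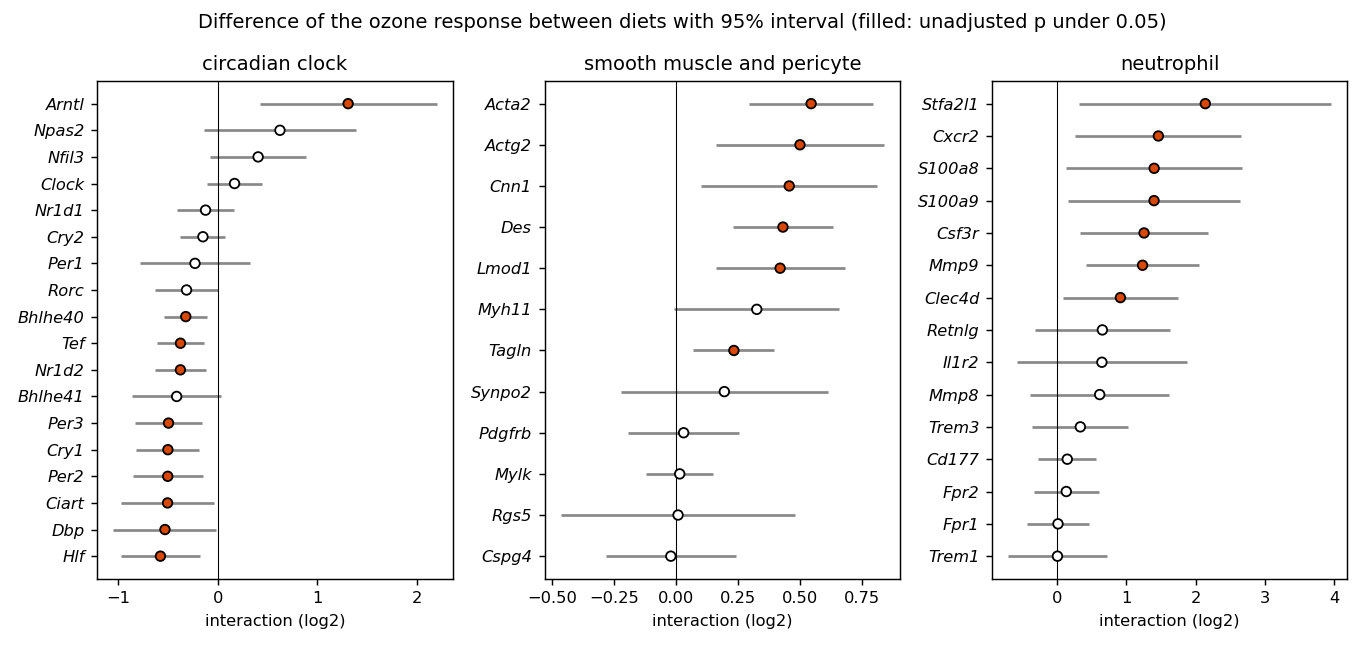
Interaction (log2, x axis) with its 95% interval (line) for each tested gene of the circadian clock, smooth muscle and neutrophil lists (rows), with filled points where the unadjusted p is under 0.05. Clock genes lie mostly left of 0 with Arntl farthest right at 1.31, contractile genes lie right of 0, and neutrophil genes lie right of 0 with wide intervals.

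Neutrophil genes had positive interaction values that rested on few libraries. Of 15 neutrophil markers tested, 7 had a positive interaction at an unadjusted p under 0.05 (2.89% of all genes) and 0 a negative one. All 15 had values above 0 (50.3% of all genes), with a median of 0.65. The 7 were Mmp9, Csf3r, Cxcr2, S100a8, S100a9, Clec4d and Stfa2l1. The summed level of the list ran from 78.95 to 232.5 CPM in control-diet air, 87.19 to 207 CPM in control-diet ozone, 68.92 to 104.7 CPM in DHA-diet air and 100.3 to 399.7 CPM in DHA-diet ozone, and by this sum all groups overlapped. By the mean log2 CPM over the list, DHA-diet air, at 1.54 to 1.88, lay below DHA-diet ozone, at 1.95 to 3.51, so the measure decides whether these groups overlap. The highest libraries were DHA-diet ozone 2 and 1, with mean log2 CPM values of 3.51 and 3.19 over the list, and control-diet air 5, with 2.86.

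The gelatinase Mmp9 had 6.75, 9.496 and 15.8 CPM in control-diet air and 6.45, 7.39 and 13.9 CPM after ozone. On the DHA diet it had 5.28, 6.42 and 8.67 CPM in air and 7.998, 10.2 and 30.7 CPM after ozone, with an interaction of 1.23 ± 0.40 (unadjusted p = 0.00434, edgeR adjusted p = 0.658). S100a8, a calcium-binding alarm protein, had medians of 13.4 and 15.7 CPM in control-diet air and ozone and of 12.4 and 19.7 CPM on the DHA diet, with a highest value of 89.8 CPM in DHA-diet ozone library 2. Its interaction was 1.40 ± 0.62. Without DHA-diet ozone libraries 1 and 2 the interaction was 0.62 for Mmp9 and 0.33 for S100a8. The count of 7 fell to 2 without control-diet air library 5, to 4 without DHA-diet ozone library 1 and to 3 without DHA-diet ozone library 2. It was 1 without DHA-diet ozone libraries 1 and 2 together (median 0.25) and 1 without control-diet air libraries 4 to 6 (median 0.48).

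The cytokine list had no member, and the chemokine list 4 members, with an interaction at an unadjusted p under 0.05. Of 18 inflammatory cytokine and acute-phase genes tested, 0 had an unadjusted p under 0.05 in either direction, with a median of 0.14. Il1b, a cytokine of activated myeloid cells, had an interaction of 0.86 ± 0.43, and its highest level was 18.5 CPM in DHA-diet ozone library 1 against a median of 5.98 CPM in that group. Without that library the Il1b interaction was 0.47. Beside 0 for the whole cytokine list, 0 to 2 members were positive with each library left out in turn. Of 14 neutrophil and monocyte chemokines, 3 were positive and 1 negative at an unadjusted p under 0.05, beside 2.89% and 3.23% of all genes, with a median of −0.04. The 3 were Cxcl1, Cxcl5 and Ccl20, all with a mean near 1 CPM, and the 1 was Ccl22, a chemokine of dendritic cells and macrophages, at −0.47 ± 0.19. With each library left out in turn 0 to 4 chemokines were positive and 1 to 3 negative, and 1 was positive without DHA-diet ozone library 1 or 2.

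Platelet genes made up another list with positive values throughout. All 9 tested were above 0 (50.3% of all genes), with a median of 0.48. At an unadjusted p under 0.05 there were 4 (2.89% of all genes), namely Itga2b, Ppbp, Pf4 and Treml1. Ppbp, a chemokine stored in platelets, had 18.9, 22.7 and 31.0 CPM in control-diet air, 11.6, 20.8 and 24.7 CPM in DHA-diet air, 15.1, 17.1 and 24.5 CPM in control-diet ozone and 14.5, 23.1 and 29.4 CPM in DHA-diet ozone. All groups overlapped, and the interaction was 0.65 ± 0.22 (edgeR adjusted p = 0.658). The count was 2 without control-diet air libraries 1 to 3, and also 2 without control-diet ozone library 4 or 6 or DHA-diet ozone library 1 or 4.

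Gp1bb, a subunit of the platelet receptor for von Willebrand factor, is not on that list and was among the 24 genes of smallest p. It had 2.16, 3.46 and 4.12 CPM in control-diet air and 1.16, 2.29 and 2.84 CPM after ozone. On the DHA diet it had 1.77, 2.43 and 2.93 CPM in air and 2.75, 3.63 and 4.27 CPM after ozone. Gp1bb fell to 0.658 of its air level on the control diet (adjusted p = 0.0289) and rose 1.46-fold on the DHA diet (adjusted p = 0.0339), with an interaction of 1.15 ± 0.27 (edgeR adjusted p = 0.385). In the deposited coordinates Gp1bb, at 18439069 to 18441154 on chromosome 16, overlaps Septin5, at 18440561 to 18448689, which had an interaction of 0.45 ± 0.15. No label states whether the counting used strand, so reads of these genes cannot be told apart with certainty.

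Most adipocyte markers and most genes of fatty acid use had positive interaction values, 9 of 10 and 19 of 24, beside 50.3% of all genes. The edgeR test called 0 members of either list. Of the 10 adipocyte markers, 5 had a positive interaction at an unadjusted p under 0.05 and 0 a negative one, beside 2.89% and 3.23% of all genes. The list's median was 0.51. Plin4, a lipid droplet coat protein, had 15.4, 24.5 and 30.8 CPM in control-diet air and 10.4, 12.2 and 17.7 CPM in control-diet ozone, and on the DHA diet 11.8, 14.5 and 21.6 CPM in air and 11.2, 13.4 and 18.7 CPM after ozone. Control-diet air had the highest median and its range overlapped that of each other group. The interaction was 0.73 ± 0.23 (unadjusted p = 0.00395, edgeR adjusted p = 0.658). Plin4 overlaps Hdgfl2 in the deposited coordinates. The adipocyte count was 0 without control-diet air libraries 1 to 3, and the median was then 0.36. It was 2 without control-diet air library 1 or DHA-diet ozone library 1, 9 without DHA-diet air library 3, and 3 without control-diet air library 4, DHA-diet air library 5, control-diet ozone library 1 or 3, or DHA-diet ozone library 3.

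Among 24 PPAR target or fatty acid oxidation genes, 6 had a positive interaction at an unadjusted p under 0.05 (2.89% of all genes) and 0 a negative one, with a median of 0.10. PPAR receptors are fatty acid sensors, for which DHA is a known ligand, and their targets include enzymes of fatty acid oxidation. Fabp3, a fatty acid carrier of heart and muscle, had 24.7, 27.6 and 37.9 CPM in air and 17.6, 20.2 and 24.98 CPM after ozone on the control diet, and 16.7, 22.2 and 23.8 CPM in air and 19.3, 21.6 and 25.8 CPM after ozone on the DHA diet. All DHA-diet air libraries were below all control-diet air libraries, and the interaction was 0.56 ± 0.16 (unadjusted p = 0.00123, edgeR adjusted p = 0.645). Fabp3 overlaps Zcchc17 in the deposited coordinates. The others were Ech1, Acadvl, Hadha, Acadm and Eci1, enzymes of mitochondrial fatty acid oxidation, between 0.14 ± 0.07 for Eci1 and 0.25 ± 0.07 for Ech1. Without control-diet air libraries 1 to 3 the count was 3 (median 0.05).

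Most cardiac muscle genes also had positive interaction values, 10 of 12 (50.3% of all genes), and 2 had an unadjusted p under 0.05 (2.89%). The 12 cardiac markers, which mouse lung also contains in the muscle sleeves of its pulmonary veins, summed to between 1760 and 2940 CPM in control-diet air, 1360 and 2181 CPM in DHA-diet air, 1247 and 2065 CPM in control-diet ozone and 1291 and 2025 CPM in DHA-diet ozone. Their median interaction was 0.34, with Myh6, the atrial myosin heavy chain, at 0.53 ± 0.24 and Sln, a regulator of the calcium pump, at 0.41 ± 0.18. The count of 2 ran from 0 to 4 with each library left out in turn. Without control-diet air libraries 1 to 3 it was 0 and the median 0.08, and without DHA-diet ozone libraries 1 and 2 it was 6. In that last fit 7.79% of all genes had an unadjusted p under 0.05 in either direction, against 6.12% with all libraries. The part of cardiac tissue in the values of Fabp3, Des, Jph2 and other muscle genes was not tested.

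Most alveolar type 2 genes had negative values, 11 of the 14 tested, while 50.3% of all genes had positive values. At an unadjusted p under 0.05, 4 had a negative interaction (3.23% of all genes) and 0 a positive one, with a median of −0.13. Beside Etv5 they were Slc34a2, the phosphate transporter of these cells, Lyz2, a lysozyme, and Sftpa1, a surfactant protein. Slc34a2 had means of 985 ± 130.5 CPM in control-diet air, 1252.5 ± 77.9 CPM in DHA-diet air, 1285 ± 106 CPM in control-diet ozone and 1365 ± 126 CPM in DHA-diet ozone (SD, n = 6), so its control-diet air group was the low one. Its interaction was −0.26 ± 0.11. The count was 1 without control-diet air libraries 1 to 3 (median −0.06), 1 without control-diet air library 2 or 4, and 7 without control-diet air library 5 or libraries 4 to 6. It was 2 without control-diet air library 1, DHA-diet air library 4 or DHA-diet ozone library 2. Without control-diet air libraries 4 to 6, 9.53% of all genes were at that p in either direction, against 6.12% with all libraries. Without libraries 1 to 3 of that group the share was 11.5%.

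Of 13 fibroblast markers, 3 were negative at an unadjusted p under 0.05 (Itga8, Col14a1 and Npnt) and 1 positive (Col13a1), beside 3.23% and 2.89% of all genes. The list's median was −0.15, and 2 to 4 members were negative at that p with each library left out in turn. Itga8, an integrin subunit of mesenchymal cells, had 120, 132 and 141 CPM in control-diet air and 113, 133 and 138 CPM in control-diet ozone, and on the DHA diet 141, 152 and 167 CPM in air and 113, 120 and 145 CPM after ozone, highest as a group in DHA-diet air. Its interaction was −0.27 ± 0.09. Tnc, an extracellular matrix protein of tissue repair, had 7.44, 8.32 and 10.02 CPM in air and 11.3, 18.04 and 21.97 CPM after ozone on the control diet, and 6.42, 7.93 and 9.33 CPM in air and 12.3, 26.4 and 57.7 CPM after ozone on the DHA diet. Air and ozone libraries were separate on both diets, and the Tnc interaction was 0.86 ± 0.33, with the highest level in DHA-diet ozone library 1. Without that library it was 0.54.

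**Figure D5:**
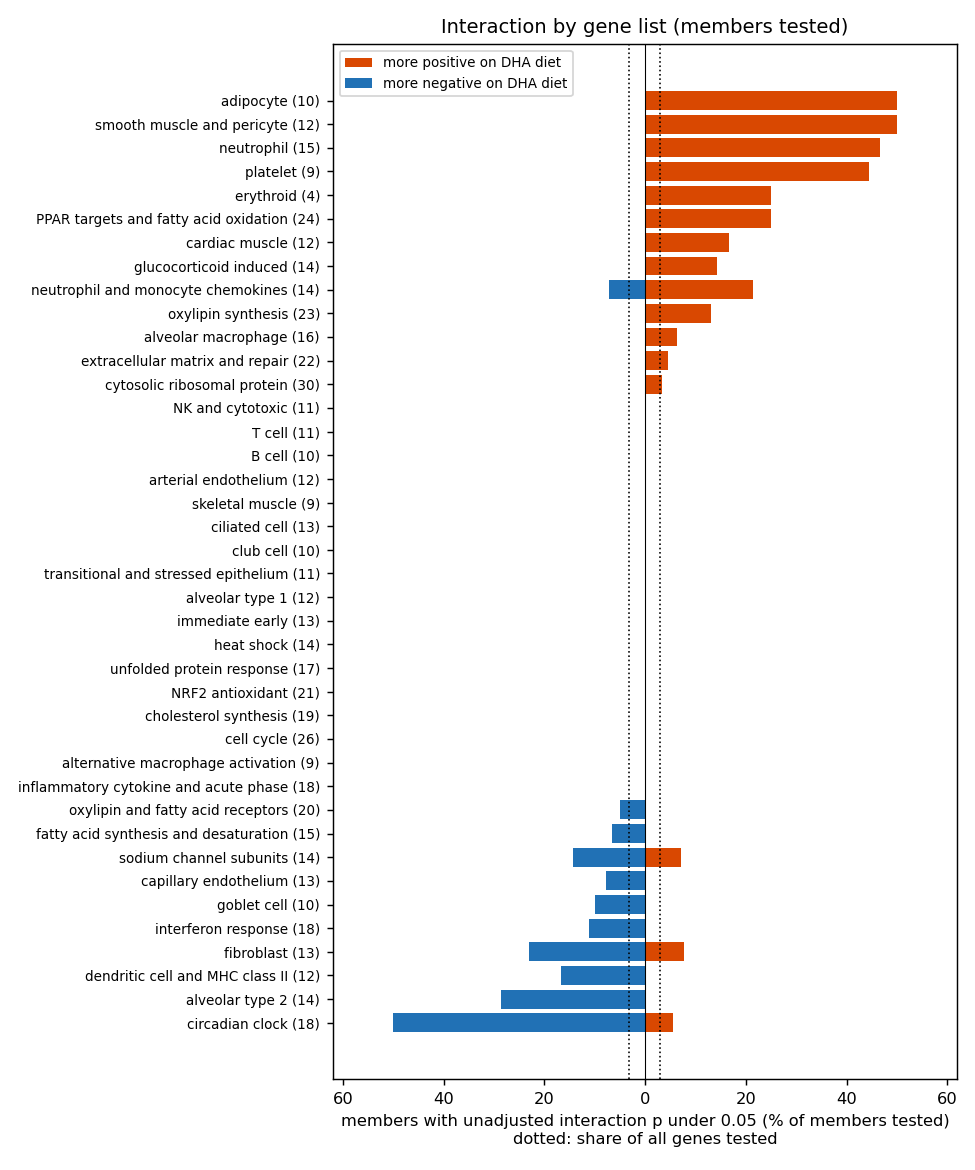
Share of the tested members of each of the 40 gene lists (rows, number tested in brackets) with an interaction at an unadjusted p under 0.05 (x axis, percent), positive to the right and negative to the left. Dotted lines mark the shares over all genes, 2.89% positive and 3.23% negative, and no member of any list was called after adjustment over all genes.

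Genes that make or sense lipid mediators from DHA and arachidonic acid had list medians near 0. Of 23 oxylipin synthesis genes, 3 were positive at an unadjusted p under 0.05 and 0 negative, beside 2.89% and 3.23% of all genes, with a median of 0.03. Alox12, the platelet-type lipoxygenase, had 0.57 ± 0.22, Ptges, the inducible prostaglandin E synthase, had 0.37 ± 0.15, and Ptges2 had 0.22 ± 0.10. Control-diet air libraries 1 and 3 had 20.5 and 20.1 CPM of Alox12, against a group median of 13.2 CPM. Its interaction ran from 0.28 to 0.83 over the 35 alternatives and left-out libraries. Mean levels of Ptges in air and after ozone were 25.003 ± 1.53 and 30.7 ± 3.16 CPM on the control diet and 22.8 ± 2.24 and 36.0 ± 9.04 CPM on the DHA diet (SD, n = 6), where ozone library 1 was highest at 53.4 CPM. Without that library the Ptges interaction was 0.22. Of 20 receptors for oxylipins and fatty acids, 1 was negative and 0 positive, with a median of 0.00. It was Rora, a nuclear receptor, at −0.23 ± 0.09. Cmklr1, a receptor for chemerin and for an omega-3-derived resolvin, had 0.27 ± 0.14 (unadjusted p = 0.0749), and 0.14 without DHA-diet ozone library 1. Among 15 genes that synthesise or desaturate fatty acids, 1 was negative, Elovl6, an elongase of saturated fatty acids, at −0.55 ± 0.25, and Elovl5, an elongase of polyunsaturated fatty acids, had −0.11 ± 0.05.

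Several lists with a raised median after control-diet ozone had 0 members at an unadjusted interaction p under 0.05 (6.12% of all genes). They included the 26 cell cycle genes (median change after ozone on the control diet 1.03, median interaction 0.13), the 18 cytokine and acute-phase genes (0.56 and 0.14), the 11 genes of transitional and stressed epithelium (0.41 and 0.14) and the 19 cholesterol synthesis genes (0.40 and 0.11). The others with 0 members and a control-diet median of at least 0.20 were the 13 immediate early genes (0.37 and 0.03), the 21 NRF2 antioxidant genes (0.33 and −0.02), the 9 genes of alternative macrophage activation (0.29 and −0.15) and the 17 genes of the unfolded protein response (0.20 and 0.08). In lists of 9 to 26 genes a count of 0 is close to the share over all genes. Lists with such a median that did have members at that p were the chemokines (median 0.485, 3 positive and 1 negative of 14), fatty acid synthesis (0.32, 1 negative of 15) and alveolar type 2 (0.26, 4 negative of 14). Cenpf, a kinetochore protein of dividing cells, had 4.87 to 8.45 CPM in control-diet ozone and 3.01 to 16.5 CPM in DHA-diet ozone, and an interaction of 0.43 with a 95% interval from −0.30 to 1.16. Plk1, a mitotic kinase, had 0.34 with an interval from −0.25 to 0.93. Both intervals include 0 and a difference of more than 1.5-fold. Without DHA-diet ozone library 1 the interactions were 0.12 for Cenpf and 0.10 for Plk1. 

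Retnla, which alternatively activated macrophages secrete, had the largest fitted rise after ozone among the genes named here on each diet, with 320 to 1385 CPM in control-diet ozone and 232 to 720.0 CPM in DHA-diet ozone. In air it ran from 38.2 to 110 CPM on the control diet and from 45.4 to 68.6 CPM on the DHA diet. Its interaction was −0.52 ± 0.39 (95% interval −1.31 to 0.27, edgeR adjusted p = 0.911), an interval that includes 0. Sprr1a, a cornified envelope protein of stressed epithelium, had 0.94 ± 0.53 (adjusted p = 0.874), and its highest level, 26.7 CPM, was again DHA-diet ozone library 1, without which the interaction was 0.40. Of 10 goblet cell genes 1 was negative at an unadjusted p under 0.05 (3.23% of all genes), and the list's median was −0.18. It was Clca1, a secreted protein of goblet cells, which had the largest interaction in size among these genes, −3.55 ± 1.12 (unadjusted p = 0.00392, adjusted p = 0.658). In control-diet ozone Clca1 ran from 0.309 to 88.3 CPM with a median of 11.5 CPM, and in DHA-diet ozone from 0.611 to 2.61 CPM with a median of 1.19 CPM. The control-diet ozone libraries therefore covered the whole range of the other groups and beyond it.

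Every tested B cell, dendritic cell and class II gene had an interaction value below 0, while T cell and NK cell markers were mixed in sign. Of all genes tested, 50.3% had a positive value. All 12 dendritic cell and major histocompatibility complex class II genes had negative values (median −0.19), 2 of them at an unadjusted p under 0.05 (3.23% of all genes). H2-Aa, a class II chain, had 297, 335 and 436 CPM in control-diet air, 329, 381 and 478 CPM in DHA-diet air, 304, 321 and 396 CPM in control-diet ozone and 227, 308 and 337 CPM in DHA-diet ozone. All groups overlapped, and its interaction was −0.30 ± 0.14 (edgeR adjusted p = 0.813). Xcr1, a chemokine receptor of cross-presenting dendritic cells, had −0.56 ± 0.26. The T cell list had 4 positive and 7 negative values (median −0.06) and the NK and cytotoxic list 6 and 5 (median 0.05), with 0 members of either at an unadjusted p under 0.05. All 10 B cell genes had negative values (median −0.21), with 0 at an unadjusted p under 0.05, and their summed level overlapped between all groups, at 196 to 340 CPM in control-diet air, 229.9 to 278 CPM in control-diet ozone, 199.5 to 380.2 CPM in DHA-diet air and 195 to 270.4 CPM in DHA-diet ozone. Of 18 interferon response genes 2 were negative at that p (3.23% of all genes), Ifit3 and Usp18. Of 14 glucocorticoid-induced genes 2 were positive at that p (2.89% of all genes), Cdkn1a and Sgk1. The list was mixed, with 8 positive and 6 negative values (median 0.07). Both genes were highest in DHA-diet ozone library 1. Cdkn1a had 108 CPM there against a group median of 57.2 CPM, and Sgk1 had 105 CPM against 88.3 CPM.

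Of 14 sodium channel subunit genes, Scn3b and Scn7a were negative and Scn8a positive at an unadjusted p under 0.05, beside 3.23% and 2.89% of all genes. The list's median was 0.01. Scn7a, an atypical sodium channel of the lung mesenchyme and nerves, had 180, 224 and 258 CPM in control-diet air and 177, 192 and 196 CPM in control-diet ozone, and on the DHA diet 217, 239.9 and 278 CPM in air and 161, 178 and 194 CPM after ozone. Ozone and air libraries were separate on the DHA diet only, and the interaction was −0.20 ± 0.10 (edgeR adjusted p = 0.813). Scn8a had a mean of 0.365 CPM, too few counts to describe by library.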

How the data were processed

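RNA of 24 mouse lung libraries was extracted with the Qiagen RNeasy Mini Kit, per the labels' protocols. The submitters' processing notes name Partek, STAR, HTSeq and the mm39 assembly. Versions, annotation and strand setting are not given there. The authors deposited raw counts per gene, in whole numbers, although the largest gene, Scgb1a1, was rounded to 3 significant digits. Groups came from the sample titles.

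Low counts were removed by filterByExpr by group (at least 10 counts, total at least 15). The model, in edgeR 4.0.16 under R 4.3.3 with TMM scaling, had 1 mean per group over all 24 libraries and 20 residual degrees of freedom. The interaction and its simple comparisons were tested with the quasi-likelihood F test, and a gene is called where its Benjamini-Hochberg adjusted p over all 16153 genes is under 0.05. Standard errors are the log2 change divided by the root of F. CPM levels use TMM-scaled library sizes, with a prior count of 2 for log2 CPM. Folds are fitted values.

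The 40 gene lists, the named genes and the libraries left out together were chosen with earlier results of these data known, and lists are described by counts and medians, with no test. Named genes were the 24 of smallest interaction p with a mean of at least 1 CPM, predicted gene models left out, the 2 members of smallest p in a list, and Scn3b, Scgb1a1, Retnla, Clca1 and Per2. The other list members named, Septin5, Sftpc, Ager and Foxj1 were singled out after their values were seen. Of the 77 genes examined under every alternative, 23 overlap another gene in the deposited coordinates. One list member that this rule selects is not reported here.

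Alternatives were RLE scaling, library totals, a filter of 1 CPM in 6 libraries, no filter, DESeq2 1.42.0, limma-voom (limma 3.58.1), a replicate block, 1 surrogate variable (sva 3.50.0), an adjusted p under 0.1 and libraries left out. The alternatives for list counts were added after seeing the data. Figures used Python 3.11.15 and matplotlib 3.10.9.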

Additional observations from a re-analysis of the deposited data

Results flagged for a closer look

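In 28 of 312 combinations of a group with 1 of the 77 genes examined or the ozone response score, the highest or lowest library was separated from the others by more than Dixon's 95% critical value for 6 values (8.97%, where chance gives about 1 in 20). Many of the genes were chosen for a small interaction p or from lists that move together, so these combinations are not independent.

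DHA-diet ozone library 1 held 10 of the 28. It was the highest of its group for Litaf (80.4 CPM), Adamts15 (58.7 CPM), Ptges (53.4 CPM), Spp1, which encodes osteopontin (217 CPM, with the other 5 libraries at 70.0 to 80.0 CPM), Il1b (18.5 CPM), Sprr1a (26.7 CPM) and Arntl (17.4 CPM). It was the lowest for Col14a1 (25.7 CPM), Nr1d2 (107 CPM) and Dbp (36.4 CPM). Without libraries 1 and 2 of this group, 10 clock genes had a negative interaction at an unadjusted p under 0.05, against 9 with all libraries. The share of all genes at that p, in either direction, was 7.79% there and 6.12% with all libraries.

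Control-diet air library 5 was the highest of its group for the neutrophil genes Csf3r (35 CPM), S100a8 (43.6 CPM) and S100a9 (80.7 CPM). Control-diet air library 6 was the highest for Scn3b (82.0 CPM) and Xcr1 (4.53 CPM) and the lowest for Actg2 (15.1 CPM), and library 1 of that group was the lowest for Mrc1, the macrophage mannose receptor (28.3 CPM).

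In control-diet ozone, library 1 was the lowest for Eif5a2 (8.04 CPM), Col14a1 (21.8 CPM) and Scn7a (177 CPM), library 4 the highest for Grpel2 (37.3 CPM), library 5 the lowest for Cry1 (12 CPM) and library 6 the highest for Cidec (17.8 CPM). In DHA-diet air, library 1 was the lowest for Nrgn (25.7 CPM) and Frmd4b (53.9 CPM), library 4 the lowest for Fabp3 (16.7 CPM) and Nr1d2 (179 CPM), and library 6 the highest for Dbp (153 CPM).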

How the results depend on the processing

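All 77 genes examined kept the direction of their interaction under all 35 alternatives and left-out libraries (2695 of 2695 values), and 14 of these values, in 7 genes, were called. Many of these genes were chosen for a small interaction p, and the alternatives reuse most of the same libraries. The agreement in direction is therefore no independent support. Some values came near 0, such as 0.02 for Myh11 and −0.03 for Scgb1a1. The count of called genes was 0 higher and 0 lower under RLE scaling, library totals, no filter, a 1 CPM filter, 1 surrogate variable, and without control-diet air libraries 1 to 3 or DHA-diet ozone libraries 1 and 2. It was 2 higher and 3 lower with DESeq2, 2 lower with limma-voom, and 3 higher and 1 lower without control-diet air libraries 4 to 6. With each of the 24 libraries left out in turn it was 0 to 2 higher and 0 to 1 lower, and the share of genes at an unadjusted p under 0.05 was 5.22 to 7.53%. The difference in ozone response score was −0.0256 without control-diet air libraries 4 to 6 and 0.0209 to 0.0597 with each library left out in turn, against 0.0372 with all libraries. The cause of these differences was not tested.

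No pairing of libraries by replicate number was seen, and the labels do not say whether the numbers link libraries of different groups. Same-numbered libraries of different groups correlated at −0.0169 on average in their deviations from the group means (range −0.21 to 0.0966 over 36 pairs), and 0 of 24 libraries correlated best with one of its own number. With the replicate number as a block, edgeR called 0 genes higher and 0 lower, 883 genes (5.47%) had an unadjusted p under 0.05, and the smallest adjusted p was 0.285. Low counts limit Grip2, Gp1bb, Ccl20 and Scn8a among others. Clca1 is limited by its spread in control-diet ozone, from 0.309 to 88.3 CPM. The 6 libraries per group limit the precision of all values.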
